A study of Homo sapiens with 9 samples.

Results

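The mRNAs of 8 enzymes of cholesterol synthesis, HMGCS1, IDI1, FDPS, FDFT1, SQLE, LSS, CYP51A1 and MSMO1, were followed through extracellular vesicles (EVs), the membrane-bound particles that cells release. The members were all probe sets of the array whose annotation names 1 of these genes, which gave 17 of the 54,675 probe sets. Of the 17, 15 are paired with a single gene and cover HMGCS1 (2 probe sets), IDI1 (4), FDPS (1), SQLE (4), LSS (3) and MSMO1 (1). The other 2 are paired with both CYP51A1 and its neighbour LRRD1, so that their signal cannot be given to either gene, and FDFT1 was not analysed here because the annotation used names no probe set for it. Tests by gene therefore covered 6 of the 8 enzymes.

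All vesicles came from the medium of H9 human embryonic stem cells (hESCs), an established pluripotent line, which is a single genetic background. Per the labels, the microvesicles (MVs) were pelleted at 16500g for 1 hour after clearing spins of 200g and 2800g. The exosomes (EXOs) were pelleted at 120000g for 2 hours once spins of 300g and 2800g and the MVs pellet had been cleared away. The study's methods describe a first spin of 300g for both. The non-fractionated hESEVs were pelleted, per the labels, at 120000g for 2 hours after a clearing spin of 300g, while the study's methods describe a longer and faster spin for them. RNA (200 ng, 3 biological samples per group) was hybridised to 9 HG-U133 Plus 2.0 arrays, on which sets of short probes each read 1 stretch of mRNA. MVs and EXOs are thus defined by the spin that pelleted them. In bulk RNA, fewer vesicles that carry an mRNA and fewer copies of it per vesicle cannot be told apart, and since the RNA input was equal, a signal is a share of the RNA and not an amount per vesicle.

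Cholesterol is built from acetyl-CoA through the mevalonate pathway, in which HMGCS1 makes the HMG-CoA that is reduced to mevalonate. IDI1 and FDPS then convert the isoprenoid units into farnesyl diphosphate, from which protein prenylation, dolichol and ubiquinone synthesis also draw. FDFT1 joins farnesyl diphosphate into squalene, SQLE and LSS turn squalene into lanosterol, and CYP51A1 and MSMO1 remove methyl groups from lanosterol on the way to cholesterol. In cells, genes of this pathway are transcribed together by the SREBP factors, of which SREBP2 is the main one for cholesterol, and NF-Y and SP1 bind beside SREBP at many of these promoters.

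The promoters of HMGCS1, FDPS and MSMO1 are shown because these enzymes had the largest differences between MVs and EXOs among the 6 tested. They cover 250 bases before the transcription start to 50 after it, from RefSeq on the assembly GRCh38.p14, 5′ to 3′ along the gene. Capitals mark CCAAT, the core of the NF-Y motif, or its reverse complement ATTGG. HMGCS1 has another window, not shown, that holds no CCAAT on either strand.
HMGCS1, chr5:43313363-43313662, minus strand: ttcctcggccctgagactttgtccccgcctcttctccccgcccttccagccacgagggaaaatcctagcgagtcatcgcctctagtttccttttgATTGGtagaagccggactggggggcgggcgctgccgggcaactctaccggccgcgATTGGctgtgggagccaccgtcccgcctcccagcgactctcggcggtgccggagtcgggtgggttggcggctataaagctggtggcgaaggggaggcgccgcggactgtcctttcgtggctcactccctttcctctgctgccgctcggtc
FDPS, chr1:155308616-155308915, plus strand: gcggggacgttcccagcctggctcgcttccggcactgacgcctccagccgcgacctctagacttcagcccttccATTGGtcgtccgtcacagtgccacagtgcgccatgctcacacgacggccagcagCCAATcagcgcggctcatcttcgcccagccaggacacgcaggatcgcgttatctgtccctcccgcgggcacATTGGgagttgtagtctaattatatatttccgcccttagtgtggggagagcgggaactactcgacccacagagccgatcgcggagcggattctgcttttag
MSMO1, chr4:165327419-165327718, plus strand: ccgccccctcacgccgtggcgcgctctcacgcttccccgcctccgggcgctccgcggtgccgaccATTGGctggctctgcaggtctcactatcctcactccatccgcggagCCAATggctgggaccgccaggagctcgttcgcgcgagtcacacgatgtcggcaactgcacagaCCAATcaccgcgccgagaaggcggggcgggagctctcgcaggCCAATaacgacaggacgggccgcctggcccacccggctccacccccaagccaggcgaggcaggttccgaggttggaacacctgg
CCAAT on either strand began 155 and 100 bases before the start in HMGCS1, at 176, 122 and 51 bases before it in FDPS, and at 185, 139, 76 and 34 bases before it in MSMO1. RefSeq windows were found for 6 of the 8 enzymes, all except FDFT1 and SQLE. They were 9 windows in all, some of which overlap within HMGCS1 and IDI1. CCAAT was in 6 of the 9 windows, against 34.61% of the 35,116 RefSeq promoter windows of the same length. By gene, it was in at least 1 window of 5 of the 6 enzymes (HMGCS1, IDI1, FDPS, LSS and MSMO1) and not in that of CYP51A1. The count by gene rises with the windows per gene and is not comparable with the share by window. GGGCGG, the core of the SP1 motif, was in all 9 windows on either strand, against 44.95% of all windows. TCACNCCAC, the letters of a classical sterol regulatory element read on both strands, was in none of the 9 and in 1.13% of all windows. Matches that overlap each other were all counted, and a match describes the letters only.

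Among the 6 enzymes tested, HMGCS1, FDPS, SQLE, LSS and MSMO1 were higher in MVs than in EXOs, by between 2.04-fold for SQLE and 10.5-fold for HMGCS1, and none was lower. IDI1 was 1.72-fold higher in MVs, under the required 2-fold. To be called, a gene needed an adjusted p under 0.05 (limma, Benjamini-Hochberg over 19,775 genes) together with a difference of 2-fold or more. Of all genes tested, 11.6% were called higher in MVs and 2.77% lower. The median log2 fold change, MVs minus EXOs, was 2.04 over the 6 enzymes and -0.23 over all genes, so that all 6 lay above the median gene, by 1.01 to 3.62 on the log2 scale. In all 6 the lowest MVs array exceeded the highest EXOs array, which held for 18.8% of all genes. Each gene is represented by its probe set of highest mean signal, a choice that favours a probe set bright in 1 group, and its other probe sets are given beside it. All signals are MAS5 intensities on a linear scale, as deposited.

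HMGCS1 (gene ID 3157, chr5:43287470-43313412 in GRCh38.p14), which condenses acetoacetyl-CoA with acetyl-CoA, had signals of 2487, 4334 and 3091 in MVs, 432, 102 and 655 in EXOs, and 834, 864 and 705 in hESEVs on probe set 221750_at. The MVs arrays stood apart from the other 6, and a single EXOs array was far below the rest. The means were 3304 ± 942 in MVs and 396 ± 278 in EXOs (SD, n = 3 each), a log2 fold change of 3.39 (standard error 0.61, 95% confidence interval 1.99 to 4.80, limma adjusted p = 0.00554). Without EXOs replicate 2, the array at 102, the log2 fold change was 2.60. The other probe set, 205822_s_at, gave 555, 305 and 357 in MVs, against 749, 639 and 502 in EXOs and 658, 643 and 562 in hESEVs. On it MVs and EXOs overlapped, while the MVs arrays all lay below the hESEVs arrays. The log2 fold change, MVs minus EXOs, was -0.66 (95% confidence interval -1.42 to 0.10, limma adjusted p = 0.229 over all probe sets). The increase of HMGCS1 was therefore measured on 1 of its 2 probe sets.

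IDI1 (gene ID 3422, chr10:1039152-1056704), the isomerase of isopentenyl diphosphate, had signals of 2953, 2291 and 2183 in MVs, against 1262, 1379 and 1673 in EXOs and 1005, 1226 and 1336 in hESEVs on 208881_x_at. The MVs arrays did not overlap the others, and the log2 fold change, MVs minus EXOs, was 0.78 (standard error 0.16, limma adjusted p = 0.0113). Its 4 probe sets did not move together. A second probe set, 204615_x_at, had a log2 fold change close to it, 0.77 (limma adjusted p = 0.0582), with 2403, 2099 and 2422 in MVs, against 1227, 1902 and 1049 in EXOs. By contrast, 242065_x_at gave 1005, 1108 and 1246 in MVs, all under the 1583, 1480 and 1437 of the EXOs arrays, a log2 fold change of -0.43 that did not pass the test (limma adjusted p = 0.0860). The dimmest, 233014_at, gave 201, 34.8 and 51.1 in MVs, against 109, 379 and 396 in EXOs, with overlap and a log2 fold change of -1.84 (95% confidence interval -3.86 to 0.18). The suffix _x_at marks probe sets with probes that may also bind other transcripts. The direction of IDI1 turned with the probe set: it was -0.18 with the probe sets averaged and -1.84 without those marked as shared. It was -0.43 with the probe set brightest in hESEVs, an alternative chosen after seeing the data.

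FDPS (gene ID 2224, chr1:155308866-155320665), which makes farnesyl diphosphate, had signals of 5277, 5562 and 5352 in MVs, 733, 1018 and 908 in EXOs, and 2108, 1797 and 2131 in hESEVs on its single probe set, 201275_at. Replicates lay close together and the 3 groups were separate, with hESEVs between MVs and EXOs. The means were 5397 ± 148 in MVs and 887 ± 144 in EXOs (SD, n = 3 each), which is 6.14-fold higher in MVs (log2 fold change 2.62, standard error 0.14, limma adjusted p = 3.32e-06). FDPS was called in all 19 alternatives, with log2 fold changes from 2.16 to 2.85.

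SQLE (gene ID 6713, chromosome 8), the squalene epoxidase and a rate-limiting enzyme of the sterol branch, had signals of 2367, 2648 and 1890 in MVs, 729, 1470 and 1312 in EXOs, and 1472, 1314 and 1210 in hESEVs on 209218_at. The MVs arrays were the highest, while EXOs and hESEVs overlapped. Relative to EXOs, SQLE was 2.04-fold higher in MVs (log2 fold change 1.02, standard error 0.26, limma adjusted p = 0.0291), just past both limits. It did not pass without MVs replicate 1 (limma adjusted p = 0.0875), without MVs replicate 2 (adjusted p = 0.0978) or without EXOs replicate 1, where the log2 fold change of 0.72 was under 2-fold. A second probe set, 213577_at, gave 1958, 2138 and 1612 in MVs, against 1314, 746 and 1242 in EXOs, without overlap and with a log2 fold change of 0.82 (limma adjusted p = 0.0616). The third, 1557352_at, was at 378, 381 and 648 in MVs, against 703, 1048 and 822 in EXOs, again without overlap but on the other side (log2 fold change -0.90, limma adjusted p = 0.0931). On 213562_s_at the 2 groups overlapped, with 252, 222 and 202 in MVs and 449, 163 and 202 in EXOs (log2 fold change -0.13).

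LSS (gene ID 4047, chr21:46188446-46228774), the lanosterol synthase that closes the sterol rings, had signals of 2881, 2093 and 2241 in MVs, 1114, 629 and 813 in EXOs, and 1550, 1432 and 1260 in hESEVs on 202245_at. The 3 groups were separate, with hESEVs in the middle. Relative to EXOs, LSS was 2.87-fold higher in MVs (log2 fold change 1.52, standard error 0.23, limma adjusted p = 0.00195). On its 2 dimmer probe sets the groups overlapped. The first, 211018_at, gave 275, 115 and 352 in MVs and 305, 260 and 310 in EXOs. The second, 211019_s_at, gave 233, 174 and 248 in MVs and 38.0, 323 and 265 in EXOs. With the 3 probe sets averaged, the log2 fold change of LSS was 0.56 and did not pass the test (limma adjusted p = 0.308).

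CYP51A1 (gene ID 1595, chr7:92112153-92134803), the lanosterol demethylase, shares its 2 probe sets with LRRD1 in the annotation, and their values belong to the pair. Probe set 202314_at gave 1277, 1021 and 1499 in MVs, 355, 316 and 277 in EXOs, and 227, 486 and 516 in hESEVs. The MVs arrays were above all others and the log2 fold change, MVs minus EXOs, was 1.99 (standard error 0.24, 3.98-fold, limma adjusted p = 0.00117 over all probe sets). Probe set 216607_s_at gave 1233, 1216 and 1123 in MVs, 1720, 1095 and 1206 in EXOs, and 754, 1146 and 1316 in hESEVs. There the groups overlapped, and the interval of the log2 fold change, MVs minus EXOs, ran from -0.58 to 0.29.

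MSMO1 (gene ID 6307, chr4:165327669-165343164), the sterol C4-methyl oxidase, had signals of 2702, 3000 and 2571 in MVs, 504, 372 and 551 in EXOs, and 367, 682 and 557 in hESEVs on its single probe set, 209146_at. The MVs arrays stood alone, and EXOs and hESEVs overlapped. The means were 2758 ± 220 in MVs and 476 ± 93.1 in EXOs (SD, n = 3 each), which is 5.87-fold higher in MVs (log2 fold change 2.55, standard error 0.19, limma adjusted p = 2.46e-05). MSMO1 too was called in all 19 alternatives, with log2 fold changes from 2.36 to 2.79.

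**Figure D1:**
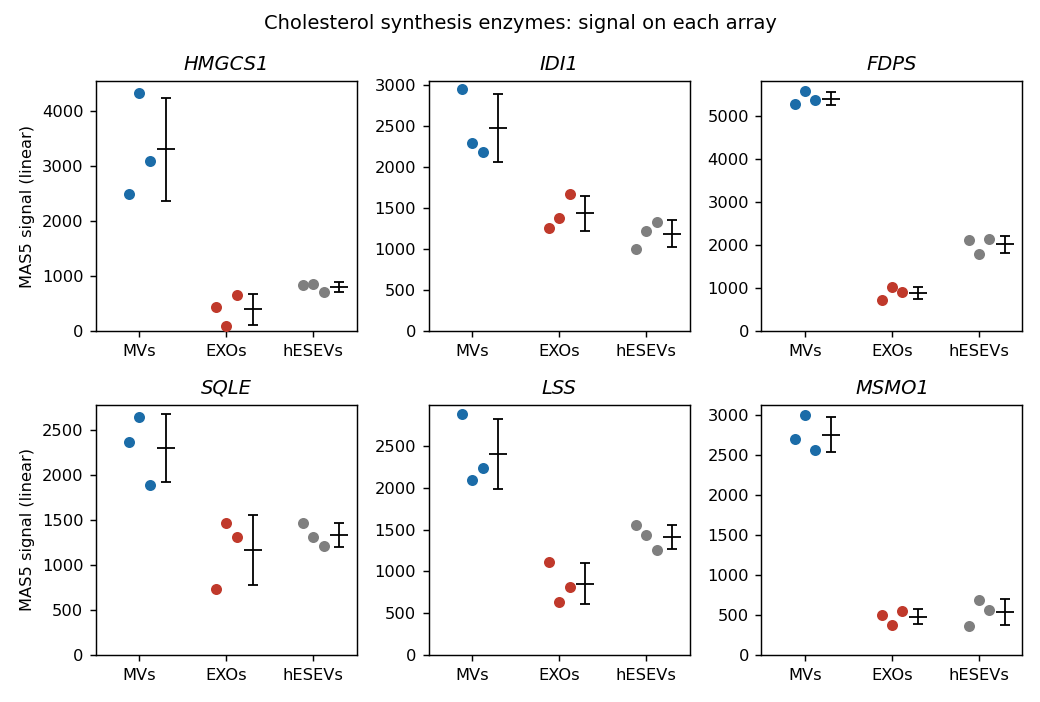
MAS5 signal (linear axis from 0, own scale per panel) of the brightest probe set of the 6 enzymes on each array of MVs, EXOs and hESEVs; dots are arrays, and the bar beside them is the mean ± SD (n = 3). In every panel the 3 MVs arrays lie above the 3 EXOs and the 3 hESEVs arrays, and the hESEVs arrays of HMGCS1, FDPS and LSS lie above their EXOs arrays.

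At the level of probe sets, 5 of the 15 with a single gene were called higher in MVs than in EXOs (1 each of HMGCS1, FDPS, SQLE, LSS and MSMO1) and none lower, against 7.23% higher and 1.97% lower of all 54,613 probe sets that are not controls. Lower at an unadjusted limma p under 0.05 were 2 of the 15, IDI1 242065_x_at and SQLE 1557352_at. The share of all probe sets at this looser limit was not computed, so the 2 cannot be set against a background. Of the 15, 9 had a positive and 6 a negative log2 fold change, with a median of 0.77, against -0.29 over all probe sets. The 10 that were not called are all probe sets of IDI1 and the dimmer probe sets of HMGCS1, SQLE and LSS. Without MVs replicate 2 the count was 3 of 15. The part of the transcript that each probe set reads was not analysed here.

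**Figure D2:**
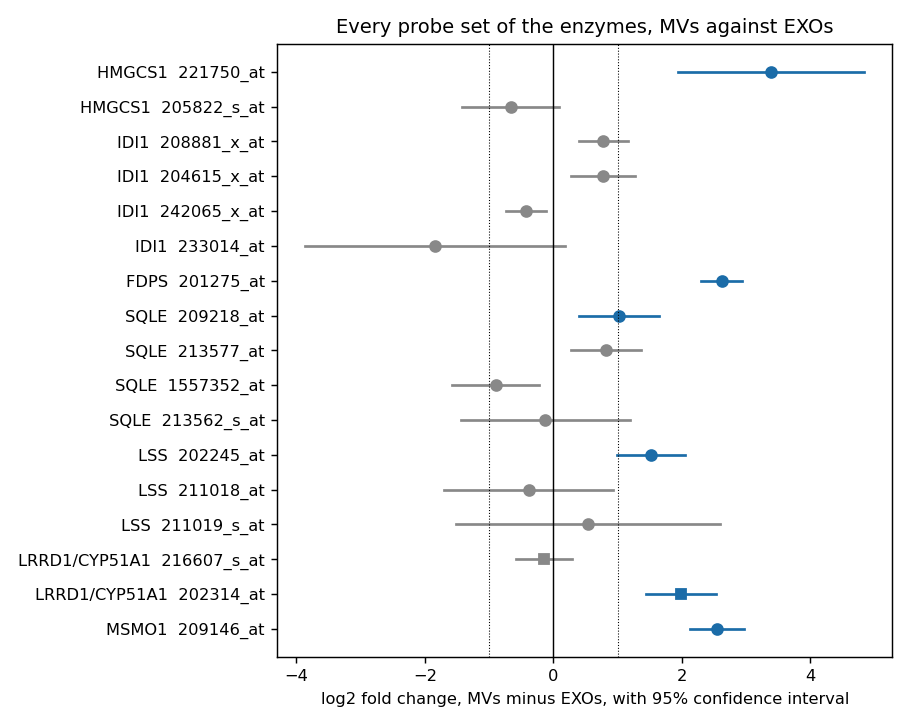
Log2 fold change, MVs minus EXOs, with its 95% confidence interval for all 17 probe sets of the enzymes; blue marks those called, grey the others, squares the 2 probe sets shared by LRRD1 and CYP51A1, and dotted lines a 2-fold difference. HMGCS1 221750_at lies farthest to the right at 3.39, while the second HMGCS1 probe set and 2 of the 4 of IDI1 lie left of 0.

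Against non-fractionated hESEVs, HMGCS1, IDI1, FDPS and MSMO1 were higher in MVs, and SQLE and LSS did not pass the test, which makes 4 of 6 called, against 7.17% of all genes called higher. On the probe sets that represent the genes, the MVs arrays of all 6 enzymes lay above the hESEVs arrays without overlap, which held for 17.1% of all genes. On HMGCS1 205822_s_at and IDI1 233014_at the MVs arrays lay wholly below the hESEVs arrays. By the probe sets that represent the genes, this held for 18.3% of all genes. Of the 15 probe sets with a single gene, 8 had a positive and 7 a negative log2 fold change, MVs minus hESEVs. Their median was 0.53, against -0.20 over all probe sets. HMGCS1 221750_at was not called when adjusted over all probe sets (limma adjusted p = 0.0504). The log2 fold change, MVs minus hESEVs, was 2.41 for MSMO1 (5.31-fold, limma adjusted p = 6.35e-05), 1.43 for FDPS (2.69-fold, adjusted p = 3.02e-05) and 1.05 for IDI1 (2.08-fold, adjusted p = 0.00158). For HMGCS1 it was 2.01, 4.03-fold (standard error 0.54, limma adjusted p = 0.0305), a call that was lost in each of the 6 fits that left out 1 array, at 1.80 to 2.20. The call of IDI1 was lost without hESEVs replicate 1 (log2 fold change 0.94). It was also lost without MVs replicate 1 (0.82) and without hESEVs replicate 2 (0.64), but there 204615_x_at became the brightest probe set. Those values of IDI1 thus mix a change of probe set with the loss of an array. SQLE had 0.78 (95% confidence interval 0.25 to 1.31, limma adjusted p = 0.0556) and LSS 0.76 (0.30 to 1.22, adjusted p = 0.0358, under 2-fold). The median over the 6 was 1.24, against -0.15 over all genes. After quantile normalization, which gives all arrays the same distribution of signals, MSMO1 alone was called, with a log2 fold change of 2.06.

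FDPS was lower in EXOs than in hESEVs, by 2.28-fold (log2 fold change -1.19, standard error 0.14, limma adjusted p = 2.12e-04), and the other 5 enzymes did not pass the test. Of all genes, 3.28% were called lower in EXOs. Both comparisons with hESEVs use the same 3 hESEVs arrays. The EXOs arrays lay below the hESEVs arrays without overlap for 3 of the 6, HMGCS1, FDPS and LSS, which held for 11.3% of all genes. The log2 fold change, EXOs minus hESEVs, was -1.38 for HMGCS1 (95% confidence interval -2.56 to -0.19, limma adjusted p = 0.250), and -0.76 for LSS (adjusted p = 0.0732). It was -0.25 for SQLE (limma adjusted p = 0.733), 0.27 for IDI1 (adjusted p = 0.532) and -0.15 for MSMO1 (adjusted p = 0.871). The interval for MSMO1, -0.70 to 0.41, leaves differences under 2-fold in either direction. The levels thus ran MVs, hESEVs, EXOs from high to low for all except IDI1, whose EXOs mean (1438 ± 212) was above that of hESEVs (1189 ± 168). FDPS was the 1 enzyme for which both steps of this order passed the test. Of these, the step between MVs and hESEVs was not called after quantile normalization (log2 fold change 0.56, limma adjusted p = 0.0581), and that between EXOs and hESEVs was not called with the methods' t-test after Benjamini-Hochberg adjustment.

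Over the 9 arrays, the mean profile of the 6 enzymes, each centred on its own mean log2 signal, was 1.13 in MVs, -0.85 in EXOs and -0.28 in hESEVs. LSS (root mean square difference 0.36 over the 9 arrays) and FDPS (0.38) lay closest to this mean and HMGCS1 (0.81) farthest, with the widest span, 1.80 in MVs and -1.59 in EXOs. MSMO1 differed in that its hESEVs (-0.75) lay near its EXOs (-0.90). Of 9,881 genes with signals above the median, the closest to the mean profile were CENPV (0.09), PGAM1 (0.13), DBF4 (0.13), BEX1 (0.14) and TPI1 (0.14). CENPV, a centromere protein, had 2689, 2976 and 2628 in MVs, 729, 602 and 792 in EXOs, and 1003, 1248 and 960 in hESEVs. PGAM1 and TPI1 are enzymes of glycolysis, DBF4 activates a kinase of DNA replication, and BEX1 is a small brain-expressed protein. A likeness of profile over 9 arrays in 3 groups is mostly a likeness of 3 group means.

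**Figure D3:**
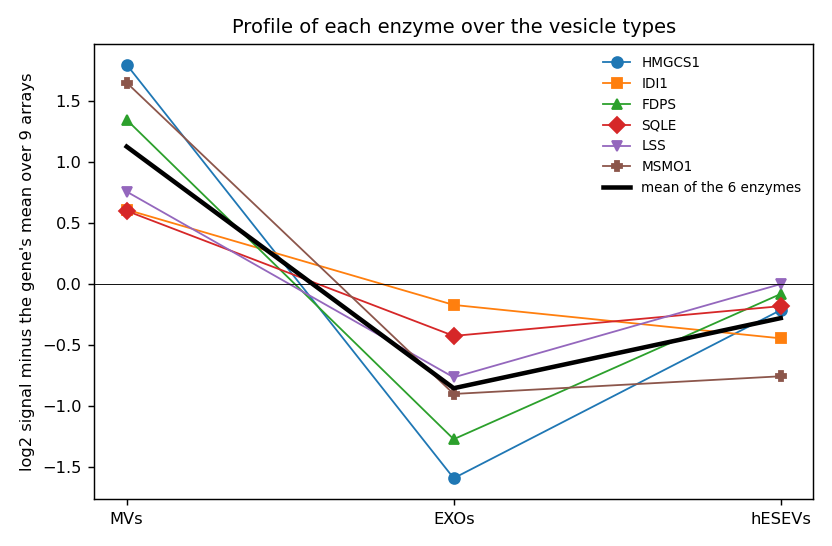
Mean log2 signal of the 6 enzymes in MVs, EXOs and hESEVs (n = 3 arrays each), minus the mean of each gene over the 9 arrays; thin lines are single enzymes and the thick line is their mean. The mean of the 6 enzymes is 1.13 in MVs, -0.85 in EXOs and -0.28 in hESEVs, and IDI1 is the 1 line that is lower in hESEVs than in EXOs.

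Of 13 other enzymes of the pathway listed, 11 were measured, and 7 of them were higher in MVs than in EXOs and none lower, with a median log2 fold change of 1.52. EBP, a sterol isomerase, had a mean signal of 1401 in MVs, against 165 in EXOs (8.97-fold, limma adjusted p = 0.00167). ACAT2, the acetyl-CoA thiolase that supplies HMGCS1, had 3934 in MVs, against 1110.0 in EXOs (3.58-fold, adjusted p = 4.79e-05). SC5D, a sterol desaturase, was 2.87-fold higher (limma adjusted p = 4.00e-04). TM7SF2, a sterol reductase, was 5.63-fold higher (adjusted p = 0.0122), from low signals of 421 in MVs and 71.6 in EXOs. MVK, mevalonate kinase, named after its values were seen, lay on the other side, with 3976 in MVs and 5006 in EXOs, a log2 fold change of -0.33 (limma adjusted p = 0.0435, under 2-fold). Without MVs replicate 2 the count was 4 of 11, and it was 3 without probe sets marked as shared between transcripts. Such probe sets represent ACAT2, PMVK, TM7SF2 and SC5D among the called enzymes. How many of the 11 were still measured without them was not counted.

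The branch that uses farnesyl diphosphate for prenyl groups, dolichol and ubiquinone had a median log2 fold change of 0.04, with 2 of 11 measured genes higher in MVs and none lower. These were FNTA, a subunit shared by the prenyl transferases, with 4.93-fold (limma adjusted p = 3.32e-05), and GGPS1, the geranylgeranyl diphosphate synthase, with 2.18-fold (adjusted p = 0.0387). PDSS2 and FNTB, next by p, had log2 fold changes of -0.67 and -0.88 that did not pass the test (limma adjusted p = 0.200 and 0.264). The 7 genes of sterol sensing encode the SREBPs or hold, escort and cut them at the endoplasmic reticulum and Golgi. None of the 7 was called by limma, and their median was 0.01. SCAP, the escort of SREBP, had 1.61 (95% confidence interval 0.28 to 2.93, limma adjusted p = 0.0861), MBTPS2, a protease that frees it, 0.32, SREBF1 0.73 and INSIG1, which retains it, -0.20.

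In cholesterol uptake and transport, 2 of 11 measured genes were higher in MVs, none was lower, and the median was 0.23. APOE, a lipoprotein component, was 7.37-fold higher (limma adjusted p = 3.88e-06), and NPC2, which carries cholesterol in lysosomes, 5.00-fold (adjusted p = 6.53e-06). LIPA, the lysosomal lipase, was 1.53-fold higher (limma adjusted p = 0.0373), under 2-fold, and OSBP, an oxysterol-binding protein, did not pass (log2 fold change 0.36, adjusted p = 0.105). In fatty acid synthesis, which SREBP1 also serves, 4 of 8 measured genes were higher and none lower, with a median of 1.48. They were ACLY, which supplies cytosolic acetyl-CoA (8.19-fold, limma adjusted p = 3.19e-06), the elongases ELOVL5 (10.0-fold, adjusted p = 1.07e-04) and ELOVL6 (2.32-fold, adjusted p = 0.00222), and the desaturase SCD (7.12-fold, adjusted p = 1.86e-05). FASN, named after its values were seen, had a log2 fold change of 0.80 and did not pass (limma adjusted p = 0.0918).

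**Figure D4:**
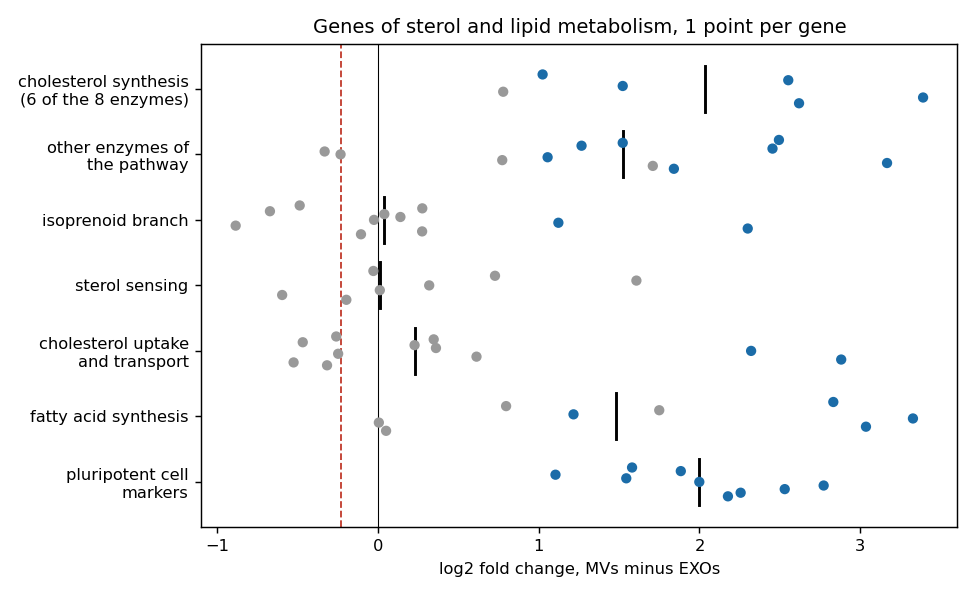
Log2 fold change, MVs minus EXOs, of each measured gene in lists of sterol and lipid metabolism and of pluripotent cell markers; blue points were called, grey points were not, black bars are list medians and the red dashed line is the median of all genes (-0.23). The medians of the enzymes (2.04), of the other enzymes of the pathway (1.52) and of fatty acid synthesis (1.48) lie to the right, and those of sterol sensing (0.01) and the isoprenoid branch (0.04) near 0. Many genes of the lists near 0 had low signals in MVs.

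Other measures moved with the same comparison. Of 10 listed markers of pluripotent cells, 9 were measured and all 9 were higher in MVs, with a median log2 fold change of 2.00. LIN28A, an RNA-binding protein of stem cells, was 6.83-fold higher, L1TD1 5.78-fold, DPPA4 4.78-fold and the DNA methyltransferase DNMT3B 4.52-fold (the largest limma adjusted p of the 4 was 2.70e-05). Their summed signal lay between 60,960 and 63,365 in MVs, between 12,654 and 15,486 in EXOs and between 18,597 and 20,815 in hESEVs. Of 12 markers of differentiated cells, none was higher in MVs and 2 were lower, EOMES (log2 fold change -1.41) and SOX1 (-2.03), against 2.77% lower of all genes. GATA3 (-0.61) and GATA4 (-0.74) were not called. The 12 markers summed to between 5071 and 5876 in MVs, between 8137 and 9423 in EXOs and between 6470 and 7526 in hESEVs. EOMES (436 in MVs, 1143 in EXOs) and SOX1 (160 and 606) were under the level of tissue-restricted genes given below in both groups. Those tissue-restricted genes also summed lower in MVs (16,365.0 to 17,598.5) than in EXOs (22,433.5 to 23,721.5). What the lower marker signals reflect was not tested. The array's control probe sets read the 3′ end of GAPDH above its 5′ end by 1.53 on the log2 scale in MVs, 0.67 in EXOs and 1.04 in hESEVs, and that of ACTB by 4.57, 2.61 and 3.24 in the same order. The part of these measures in the differences of the enzymes was not tested.

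As a rough level of signal for genes not expected in these cells, the 90th percentile over 36 measured tissue-restricted genes was 893 in MVs, 1295 in EXOs and 1136 in hESEVs. Probe sets differ in how strongly they bind, so this level is a guide and no detection limit. The means of all 6 enzymes were above it in MVs. In EXOs, IDI1 alone was above it, so that the sizes of the other folds against EXOs are uncertain. This applies also to 202314_at of CYP51A1 and LRRD1 (316 in EXOs). In the sterol and lipid lists it applies to every called gene named above except ELOVL6 (1632 in EXOs). In hESEVs, HMGCS1 (801) and MSMO1 (536) were under it, so that their folds against hESEVs, and the closeness of EXOs and hESEVs for MSMO1, are uncertain too. Of the 36 genes, 1 was called higher and 1 lower in MVs than in EXOs, with a median log2 fold change of -0.49. Of sterol sensing, SREBF1 (282), SCAP (823), INSIG1 (759), INSIG2 (303) and MBTPS1 (553) were under the level in MVs. SREBF2 and MBTPS2 were above it. Of the isoprenoid branch, FNTB, RCE1, PDSS2, NUS1, COQ2 and DHDDS were under it in MVs, and GGPS1, FNTA, PGGT1B, ICMT and PDSS1 above. Medians near 0 in these lists therefore do not show equal levels.

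The median signal of the arrays lay between 358 and 365 in MVs, between 422 and 430 in EXOs and between 415 and 421 in hESEVs, and correlations between replicates averaged 0.82 in MVs, 0.77 in EXOs and 0.79 in hESEVs. Since all arrays were scaled to 1 mean, fold changes are relative to it. Of the genes called between MVs and EXOs, 80.7% were higher in MVs (2293 higher, 548 lower). With each array centred on its median the share was 93.5% (2770 higher, 193 lower), and IDI1 joined the calls, at a log2 fold change of 1.01. After quantile normalization the share was 71.3% (2182 higher, 877 lower) and SQLE was not called (log2 fold change 0.67, limma adjusted p = 0.217), but all 6 enzymes still lay above the median gene, by 0.39 to 3.28. Between MVs and hESEVs, 82.1% of calls were higher in MVs (1417 higher, 308 lower), 94.8% with median centring (1904 higher, 104 lower) and 68.8% after quantile normalization (643 higher, 291 lower). Between EXOs and hESEVs, 5.0% of calls were higher in EXOs (34 higher, 648 lower), against 17.1% after quantile normalization (143 higher, 691 lower).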

How the data were processed

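RNA of MVs, EXOs and hESEVs was measured on 9 HG-U133 Plus 2.0 arrays, 3 per group. The authors deposited intensity values per probe set on a linear scale, made with the Affymetrix MAS5 software (version not given in the sources used here) and scaled to a target of 500. The RMA values of the study's own comparison were not used here. Arrays were grouped by the vesicle type in the labels.

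Signals under 32 were raised to 32 and log2 was taken. Of the probe sets, 62 controls, 1,801 paired with several genes and 11,721 with none were left out of tests by gene. Each gene was represented by its brightest probe set (mean log2 signal in that fit). The comparison of MVs with EXOs used 6 arrays, and both were set against hESEVs in 1 fit of 9, with limma 3.58.1 in R 4.3.3 (lmFit, eBayes with a trend, two-sided), with Benjamini-Hochberg adjustment over all genes or all probe sets. The study's methods name the same fold and p limits and no adjustment. The procedure was tested on simulated data.

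The members and gene lists were chosen with earlier results of these data known. Genes are named by rule: all members, up to 4 genes per list with the smallest p, MVs minus EXOs, and the 5 genes closest to the members' mean profile. Promoters came from RefSeq (GRCh38.p14). Same-numbered arrays of different groups did not deviate together (correlations -0.01 to 0.01), so numbers were not taken to pair them. Alternatives were other scalings, a filter on low signals, a floor of 1 or 100, other uses of a gene's probe sets, no trend, a replicate block, the methods' t-test, other arrays in the fit and each array left out. The number of arrays limits the precision. Python 3.11.15, pandas 2.3.3, numpy 2.4.6 and matplotlib 3.10.9 were used.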

Additional observations from a re-analysis of the deposited data

How the results depend on the processing

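Between MVs and EXOs, 5 of 6 enzymes were called, 5 with the replicate block, and 3 with probe sets averaged or with the methods' t-test after Benjamini-Hochberg adjustment. FDPS and MSMO1, with 1 probe set each, were called in all 19 alternatives, and SQLE, with 4 probe sets, was not in 8. For FDPS and MSMO1 the floors and the other uses of a gene's probe sets could not change the log2 fold change. The 5 called probe sets became 8 with median centring, 2 with the adjusted t-test and 3 to 6 with 1 array left out. The 7 other pathway enzymes became 4 with the filter on low signals, without the trend or with the adjusted t-test, 3 without shared probe sets, and 4 to 6 with 1 array left out. Between MVs and hESEVs, 4 calls became 1 after quantile normalization, 2 with probe sets averaged and 2 to 3 with 1 array left out. The 1 call between EXOs and hESEVs was lost (0) with the adjusted t-test.

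Directions turned where another probe set was used, and some where 1 array was left out. IDI1, MVs minus EXOs, was -0.18 with probe sets averaged, -1.84 without shared ones and -0.43 with the one brightest in hESEVs. IDI1, MVs minus hESEVs, was -0.077 averaged and -2.004 without shared ones, and LSS -0.083 averaged. EXOs minus hESEVs, IDI1 was -0.16 without shared ones and HMGCS1 0.005 in a fit of 6 arrays, where its other probe set was the brighter. With 1 array left out, EXOs minus hESEVs ran from -0.13 to 0.36 for IDI1, -0.44 to 0.065 for SQLE and -0.395 to 0.053 for MSMO1. The -0.13 of IDI1 came without hESEVs replicate 2, where 204615_x_at was its brightest probe set. MSMO1 has a single probe set, so its 0.053 without hESEVs replicate 2 came with the array left out. The causes of the other changes were not tested. Signal over background limits what the EXOs arrays can show.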
